A study of Homo sapiens with 16 samples.

Results

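The genes described here are 6 surface antigens by which T cell activation is followed: CD69, IL2RA, CD40LG, CD38, CD44 and TFRC. They were chosen by their gene symbols and are 6 of 58295 genes in the transcript tables, and 6 of 6 passed the filter on low counts. IL2RA had 0 to 4 estimated counts in each unstimulated library and passed only through its stimulated libraries. Their RNA was measured by sequencing of polyadenylated RNA in 16 libraries of JSL1 cells, a clone of the human Jurkat T cell leukaemia line. The JSL1 cells were unedited (WT) or carried CRISPR-Cas9 edits of exon 9 of HDAC7, a class IIa histone deacetylase. In dE9 cells the exon is deleted, and in iE9 cells the labels record an exon 9 knock-in. Each line was harvested after 48 h with phorbol 12-myristate 13-acetate (PMA, 20 ng/mL), which stands in for diacylglycerol and so switches on protein kinase C and Ras signalling, or in growth medium without it. The sample labels give 48 h for the unstimulated cells too, whereas the series' design text sets 0 h against 48 h of PMA, so a PMA difference may include time in culture and these cannot be told apart here. The iE9 and dE9 lines had 3 libraries per treatment, and WT had 2. How many clones stand behind each edited line, and whether libraries came from separate cultures, is not given in the sources used here. The p-values therefore reflect only how far these libraries varied, which may be technical variation.

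T cells put these molecules on their surface at different times after stimulation. CD69 is a C-type lectin that appears early and holds the sphingosine-1-phosphate receptor S1PR1 inside the cell. IL2RA is the alpha chain that raises the affinity of the IL-2 receptor, and CD40LG is the TNF family ligand through which helper T cells signal to CD40 on B cells and myeloid cells. CD38 is an ectoenzyme that hydrolyses NAD, CD44 is a receptor for hyaluronan, and TFRC, the transferrin receptor, brings iron into dividing cells. CD38 and TFRC are also high on thymocytes and on many T cell leukaemias, and TFRC RNA is stabilised by iron regulatory proteins when iron is scarce.

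Libraries held between 14536537 and 21888896 estimated counts. Levels are given in CPM, counts scaled to a common library size. HDAC7 itself was at 322 to 405 CPM in iE9-labelled PMA libraries, 155 to 251 CPM in dE9 PMA libraries and 238 to 244 CPM in WT PMA libraries. Unstimulated libraries had 129 to 204 CPM (iE9-labelled), 46.8 to 59.1 CPM (dE9) and 45.7 to 58.1 CPM (WT). The estimated share of HDAC7 transcripts that hold exon 9 was 42.3% to 74.8% in the iE9-labelled libraries, 0% to 7.37% in dE9 libraries and 43.1% to 53.8% in WT libraries. This share sets dE9 apart, but iE9-labelled libraries overlapped WT, so they are called here by their label. All 14 T cell markers examined passed the filter, with summed levels of 2620 to 7420 CPM, and 25 of 35 markers of B, myeloid, natural killer, erythroid, stromal and epithelial cells were under 1 CPM in every library. Mitochondrial genes took 9.17% of counts in unstimulated iE9-labelled library 1 and 12.81% in PMA-treated iE9-labelled library 1, against 3% to 6.39% elsewhere. On the first principal component, dE9 PMA library 1 lay at 28, against 75 and 88 for the other dE9 PMA libraries.

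The sequences just upstream of 3 members are shown, as only these had a window that could be printed. Of these genes, IL2RA had the largest PMA folds, CD38 was not called with PMA in the iE9-labelled line, and TFRC was the member that fell. They are RefSeq promoter windows (GRCh38.p14), printed 5′ to 3′ on the gene's own strand up to the base before the outermost annotated start. Capitals mark matches, on either strand, to the NF-kB consensus, the CArG box, to which serum response factor binds, and the GC box GGGCGG, to which SP1 family factors bind. Of the 6 members, 4 had a window in the table, and that of CD44 lay inside the annotated gene and is not printed.
IL2RA, chr10:6062371-6062617, minus strand: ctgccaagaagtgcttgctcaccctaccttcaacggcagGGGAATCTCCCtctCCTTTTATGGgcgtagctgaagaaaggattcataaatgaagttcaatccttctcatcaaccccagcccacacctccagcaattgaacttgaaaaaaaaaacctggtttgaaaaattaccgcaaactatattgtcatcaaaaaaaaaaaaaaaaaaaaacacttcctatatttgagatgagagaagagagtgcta
CD38, chr4:15778078-15778274, plus strand: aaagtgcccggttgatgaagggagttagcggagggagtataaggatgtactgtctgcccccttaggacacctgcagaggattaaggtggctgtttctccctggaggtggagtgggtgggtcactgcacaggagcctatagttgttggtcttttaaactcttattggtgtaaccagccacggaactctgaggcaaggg
TFRC, chr3:196082190-196082340, minus strand: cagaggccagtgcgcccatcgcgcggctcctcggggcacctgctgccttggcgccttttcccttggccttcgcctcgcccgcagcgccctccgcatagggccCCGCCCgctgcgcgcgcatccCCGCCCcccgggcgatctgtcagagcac

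The IL2RA window held 1 stretch matching the NF-kB consensus on both strands, with overlapping matches from base -211 to -202 and from base -210 to -201 of the RefSeq start, and 1 CArG box from base -197 to -188. Among the 35116 RefSeq windows of 250 upstream bases, 5.21% held the NF-kB consensus and 1.16% the CArG box on either strand. The GC box was in 42.6% of windows, and TFRC held 3 matches, 2 of them in the printed bases. The printed part of the CD38 window held none of these 3 motifs. The AP-1 motif TGANTCA, present in 6.57% of windows, and the E-box CACGTG, present in 6.34%, had no match in the IL2RA, CD38, CD44 or TFRC window. The NFAT core GGAAA, which is too short to set windows apart (55.6% held it), is not capitalised. Motif matches describe the letters of these windows only.

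PMA raised CD69, IL2RA, CD40LG and CD44 and lowered TFRC in all 3 lines, and CD38 rose in dE9 and WT cells. In edgeR's quasi-likelihood test over all genes, 5 of 6 members changed in the iE9-labelled line, where 27.1% of all tested genes did. In dE9 cells 6 of 6 changed, where 33.5% did, and in WT cells 6 of 6, where 22.3% did. IL2RA is in these counts only because its PMA libraries passed the filter on low counts. Of all tested genes, PMA raised 12.6% in the iE9-labelled line, 17.1% in dE9 and 11.1% in WT cells, and lowered 14.4%, 16.5% and 11.3% in the same order. The spread between libraries was a biological coefficient of variation of 31.8%. How many of all tested genes had libraries without overlap was not counted. Statements that groups did not overlap therefore describe the values of the members only. As these are bulk samples, more RNA per cell and more expressing cells cannot be told apart.

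Ranked by TPM, a library-scaled level that allows for transcript length, CD69 led among the members after PMA, with 751 ± 162 TPM in iE9-labelled cells, 282 ± 125 TPM in dE9 cells (SD, n = 3 each) and 461 ± 58.1 TPM in WT cells (SD, n = 2). CD40LG came next in the same groups, at 253, 106 and 147 TPM, followed by TFRC at 81.7, 50.5 and 54.9 TPM, and by CD38 at 35.2, 16.2 and 28.4 TPM. IL2RA at 4.33 to 6.43 TPM and CD44 at 1.39 to 2.64 TPM stayed low even after PMA. Without PMA the order was different, with TFRC first at 146 to 157 TPM in the 3 lines.

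**Figure D1:**
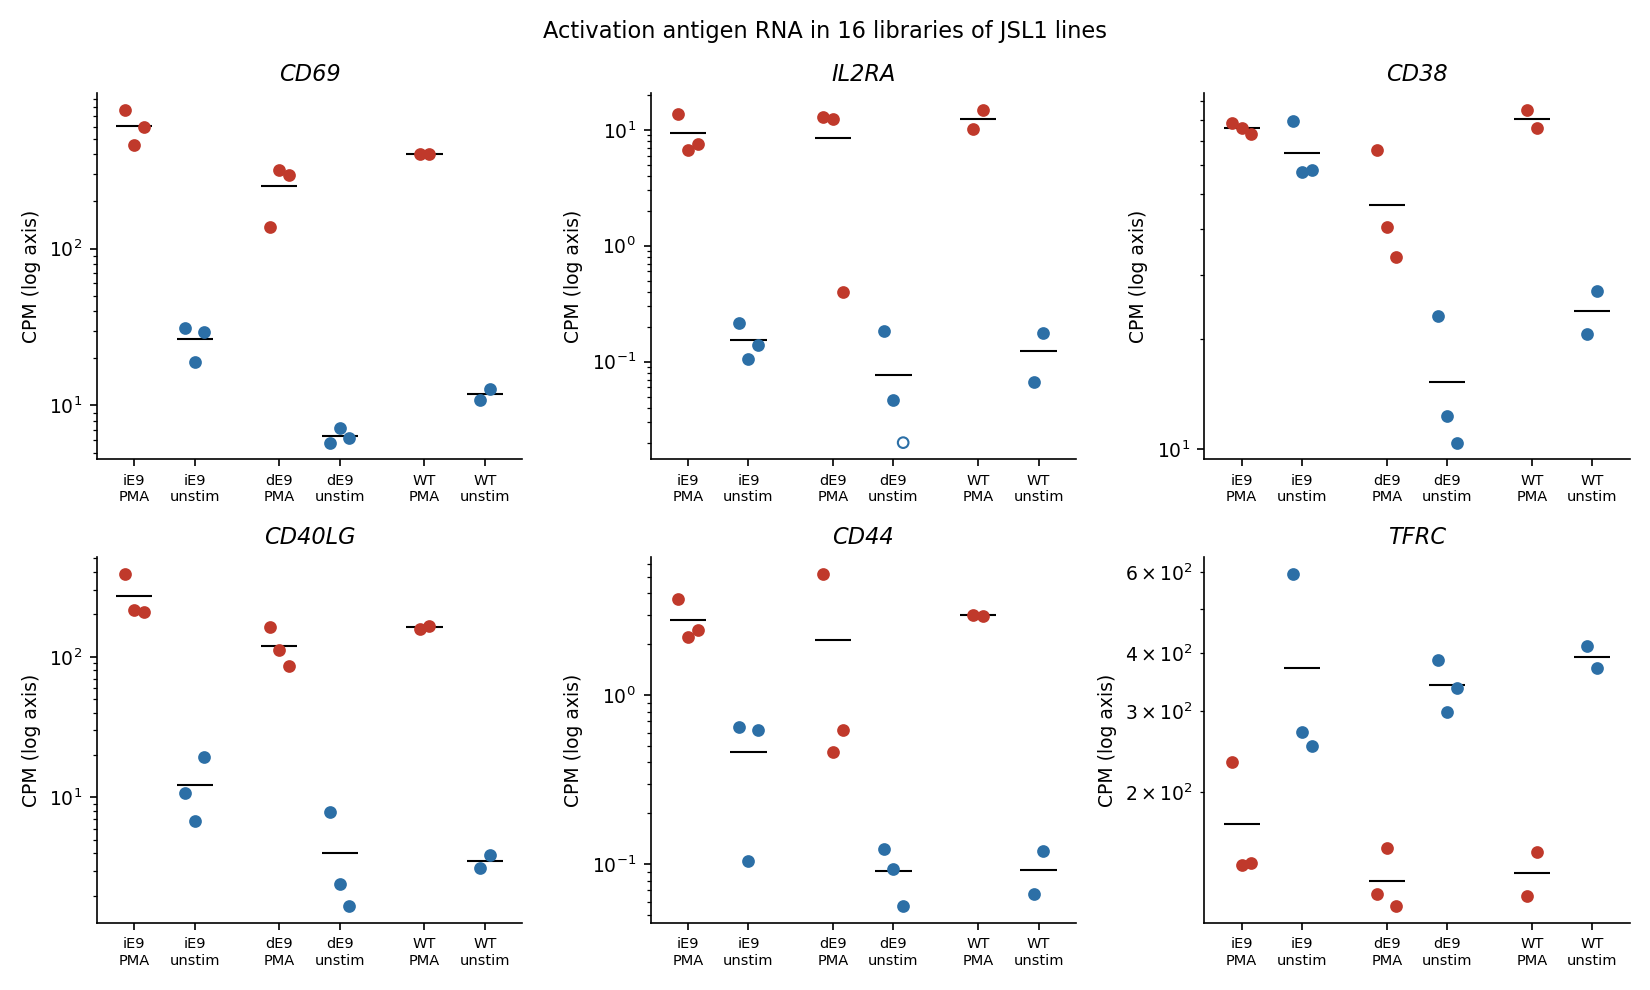
Level of each of the 6 antigens in every library, in TMM-scaled CPM on a log axis, with PMA groups left of unstimulated groups in the iE9-labelled, dE9 and WT lines; each point is 1 library, horizontal bars are group means, and the open point is a library with 0 counts drawn at 0.02 CPM. CD69, IL2RA, CD40LG and CD44 lie higher and TFRC lower with PMA in every line, without overlap, whereas the CD38 points of the iE9-labelled line overlap. The share of all tested genes that likewise do not overlap was not counted.

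CD69 (ENSG00000110848, chr12:9752486-9760901, minus strand, GRCh38) rose between 23-fold and 38.9-fold with PMA. In the iE9-labelled line it was at 764, 458 and 599 CPM with PMA, against 31.1, 18.8 and 29.2 CPM without (log2 fold change 4.53 ± 0.32 SE, adjusted p = 9.15e-07). In dE9 cells it was at 137, 316 and 295 CPM with PMA, against 5.79, 7.2 and 6.21 CPM without (5.28 ± 0.34, adjusted p = 4.05e-07). The low PMA value is that of dE9 library 1, the library that lay apart on the first principal component. In WT cells it was at 403 and 400 CPM with PMA, against 10.8 and 12.7 CPM without (5.09 ± 0.41, adjusted p = 5.98e-06). The 6 group means fell in the order iE9-labelled PMA, WT PMA, dE9 PMA, iE9-labelled unstimulated, WT unstimulated and dE9 unstimulated, and the ranges of neighbouring groups did not overlap at any step. The share of all tested genes with such separate groups was not counted. Its leading transcript, which is protein-coding, made up 78.2% to 85.5% of CD69 TPM in the group means.

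IL2RA (ENSG00000134460, chr10:6010689-6062370, minus strand, GRCh38), close to absent without PMA, was low but measurable with it. With PMA it had 214, 109 and 137 estimated counts in iE9-labelled libraries, against 4, 2 and 2 without, a ratio of 59.7 after scaling for library size (95% exact interval 30 to 139, counting error only). The dE9 libraries had 281, 267 and 7 counts with PMA, against 3, 1 and 0 without (ratio 126, interval 48.7 to 462). The dE9 PMA library 3, at 0.395 CPM against 12.9 and 12.3 CPM in the other dE9 PMA libraries, stood apart for this gene. WT libraries had 177 and 269 counts with PMA, against 1 and 3 without (ratio 99.2, interval 38.5 to 366). The adjusted p was 8.56e-04 in the iE9-labelled line, 3.94e-04 in dE9 cells and 0.00291 in WT cells. With so few counts in the unstimulated libraries the fitted size is loose: the log2 value was 6.74 in dE9 cells and 8.08 without unstimulated library 1, and 6.56 in WT cells and 7.4 without unstimulated library 2. A single leading transcript made up 71.9% to 76.4% of IL2RA TPM in the PMA group means.

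CD40LG (ENSG00000102245, chrX:136648193-136660390, plus strand, GRCh38) reached 390, 216 and 209 CPM with PMA in the iE9-labelled line, against 10.8, 6.82 and 19.4 CPM without (log2 4.47 ± 0.52 SE, adjusted p = 3.98e-05). In dE9 cells it was at 163, 111 and 86.5 CPM with PMA, against 7.89, 2.43 and 1.69 CPM without (4.93 ± 0.54, adjusted p = 1.96e-05). Without dE9 unstimulated library 1, the highest of that group, this value was 5.89. WT cells had 158 and 166 CPM with PMA, against 3.15 and 3.91 CPM without (5.52 ± 0.68, adjusted p = 1.34e-04). Every PMA library exceeded every unstimulated library of all lines. Nearly all of it, 99.8% or more in each group mean, was assigned to 1 protein-coding transcript.

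CD44 (ENSG00000026508, chr11:35138870-35232402, plus strand, GRCh38) stayed at or below 5.24 CPM in all libraries, and its PMA response rests on 10 to 114 counts per PMA library. In iE9-labelled libraries it had 58, 36 and 44 counts with PMA, against 12, 2 and 9 without (ratio 6.22, interval 3.98 to 10.1; adjusted p = 0.0311). In dE9 libraries it had 114, 10 and 11 counts with PMA, against 2, 2 and 1 without (ratio 24.4, interval 10.2 to 76.4; adjusted p = 0.00296). Library 1 carried most of this: the log2 value of 4.44 ± 0.98 SE was 2.48 without it, with an adjusted p of 0.0152. WT libraries had 52 and 54 counts with PMA, against 1 and 2 without (ratio 31.4, interval 10.5 to 155; adjusted p = 0.0108). The WT call was lost without either unstimulated library (adjusted p = 0.101 and 0.0721), and the iE9-labelled call in 6 of 16 alternative analyses, at adjusted p values up to 0.114.

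CD44 is known for a cassette of variant exons that the standard form skips. In the annotation, the longest CD44 transcript compared holds 9 exons, 1143 bases in all between 35196746 and 35211449 on chromosome 11 (GRCh38), that the standard form lacks. The share of CD44 TPM in transcripts with at least 1 variant exon was 0% in all 6 iE9-labelled libraries. It was 1.13%, 0% and 92.2% in the dE9 PMA libraries, against 0%, 100% and 100% in unstimulated dE9 libraries, where 1 or 2 counts in all stand behind each value. WT libraries had 2.66% and 38.6% with PMA, against 100% and 0% without. The difference between PMA and unstimulated cells was -35.6 points in dE9 cells (exact permutation test, two-sided, p = 0.4, where 0.1 is the smallest value 3 against 3 libraries allow) and -29.4 points in WT cells (exact permutation test, two-sided, p = 1, smallest possible 0.333). Without WT unstimulated library 1 the WT difference was 20.6 points. At this depth CD44 exon use could not be measured.

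TFRC (ENSG00000072274, chr3:196027183-196082189, minus strand, GRCh38) was the member that PMA lowered. In the iE9-labelled line it was at 232, 139 and 140 CPM with PMA, against 596, 270 and 252 CPM without (log2 -1.13 ± 0.30 SE, adjusted p = 0.0113). In both treatments library 1, the library with the high mitochondrial share, was the highest. In dE9 cells TFRC was at 120, 151 and 113 CPM with PMA, against 387, 299 and 337 CPM without (-1.41 ± 0.30, adjusted p = 0.0023). WT cells had 119 and 148 CPM with PMA, against 415 and 372 CPM without (-1.56 ± 0.37, adjusted p = 0.00807). No PMA library reached the lowest unstimulated library of any line. The WT call was lost without unstimulated library 1 (adjusted p = 0.0561) or without PMA library 1 (0.0917), and the iE9-labelled call in 3 of 16 alternatives, at adjusted p values up to 0.0641. Without unstimulated iE9-labelled library 1 the iE9-labelled change was -0.62 (adjusted p = 0.0462).

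CD38 (ENSG00000004468, chr4:15778275-15853230, plus strand, GRCh38) behaved unlike the other members. In the iE9-labelled line it was at 78.4, 75.8 and 72.9 CPM with PMA, against 79.3, 57.4 and 58.2 CPM without, and the groups overlapped (log2 0.22 ± 0.28 SE, adjusted p = 0.602, 95% interval -0.38 to 0.82). In dE9 cells it was at 65.9, 40.6 and 33.6 CPM with PMA, against 23.1, 12.3 and 10.4 CPM without (1.61 ± 0.29, adjusted p = 7.6e-04). WT cells had 85 and 76 CPM with PMA, against 20.6 and 27.1 CPM without (1.75 ± 0.35, adjusted p = 0.00326). The 57.4 to 79.3 CPM of unstimulated iE9-labelled libraries overlapped the 76 to 85 CPM of WT PMA libraries. The WT call was lost without unstimulated library 1 (adjusted p = 0.0518), and with counts corrected for transcript length the dE9 value was 1.0 (adjusted p = 0.00374).

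The CD38 response itself was compared between lines. The log2 fold change of the iE9-labelled line minus that of dE9 cells was -1.39 ± 0.40 SE (unadjusted p = 0.00343, adjusted p = 0.387) and minus that of WT cells -1.53 ± 0.45 (unadjusted p = 0.0038, adjusted p = 0.509). In each comparison of responses 0 of 6 members and 0% of all tested genes passed edgeR's adjusted threshold, with 1239 genes at an unadjusted p under 0.05 for iE9-labelled against dE9, 1022 for iE9-labelled against WT and 282 for dE9 against WT. DESeq2 called 114, 59 and 1 genes in the same order, none of them a member. Libraries with the same number deviated together within the dE9 line, and within the iE9-labelled line mainly for library 1. With the replicate number as a block within each line, a fit added after the data were seen, the CD38 difference passed the threshold against dE9 (-1.40, adjusted p = 0.0401) and against WT (-1.53, adjusted p = 0.0268). With no filter on low counts it passed as well (adjusted p = 0.00127 against dE9 and 0.00226 against WT). With length-scaled counts the difference from dE9 was -0.70 (adjusted p = 0.627), and without dE9 PMA library 1 and both iE9-labelled libraries 1 it was -0.92 (adjusted p = 0.26). Over all alternatives the adjusted p ran up to 0.724 against dE9 and up to 1 against WT. The intervals for the response of the other 5 members spanned 0, and that of CD69, -0.75 against dE9, ran from -1.61 to 0.11.

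**Figure D2:**
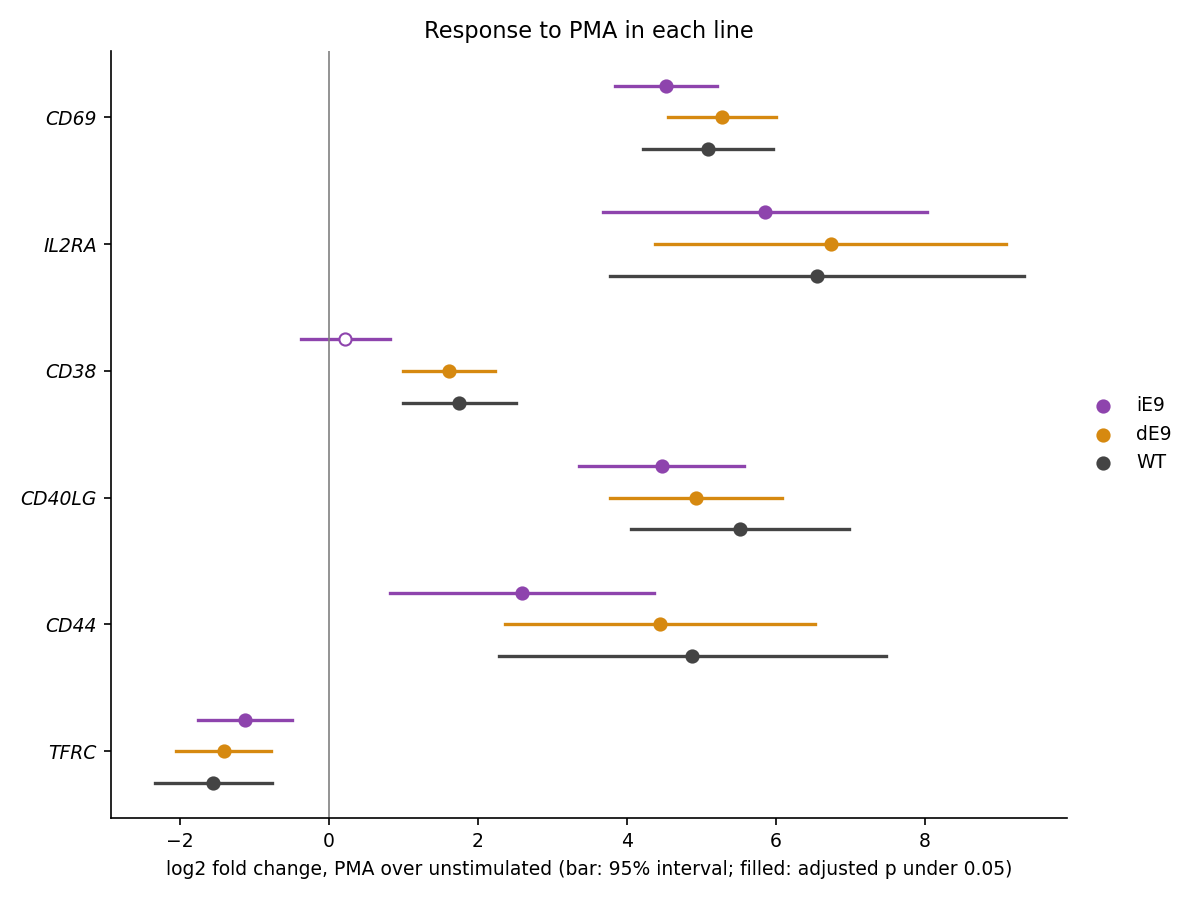
Fitted log2 fold change of each antigen with PMA over unstimulated cells in the iE9-labelled, dE9 and WT lines; bars are 95% intervals, and filled points passed the adjusted threshold. The CD38 point of the iE9-labelled line, at 0.22, is the open one, and TFRC lies below 0 in each line.

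Between the lines, CD69 and CD38 were higher in iE9-labelled than in dE9 cells before any stimulation. In unstimulated cells, 2 of 6 members were called in that comparison, both higher, where 1.72% of all tested genes were called and 0.957% were called higher. CD69 stood at 31.1, 18.8 and 29.2 CPM in iE9-labelled libraries, against 5.79, 7.2 and 6.21 CPM in dE9 libraries, a 4.11-fold difference (log2 2.04 ± 0.30 SE, adjusted p = 0.00394). CD38 stood at 79.3, 57.4 and 58.2 CPM in iE9-labelled libraries, against 23.1, 12.3 and 10.4 CPM in dE9 libraries, a 4.26-fold difference (2.09 ± 0.29, adjusted p = 0.00316). Both calls held in all 15 alternatives, and in the fit without dE9 PMA library 1 and both iE9-labelled libraries 1 the values were 1.90 for CD69 and 1.93 for CD38. CD40LG was 3.1-fold higher in the fit but did not pass (1.63 ± 0.50, adjusted p = 0.118), with 10.8, 6.82 and 19.4 CPM in iE9-labelled libraries, against 7.89, 2.43 and 1.69 CPM in dE9 libraries. Without dE9 unstimulated library 1 its difference was 2.56, with an adjusted p of 0.0207. TFRC differed by 0.13 (interval -0.50 to 0.75), and IL2RA and CD44 had too few counts to compare, at 8 against 4 and 23 against 5 in all.

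After PMA, CD69 alone passed the test between the edited lines, 1 of 6 members where 2.61% of all tested genes were called and 1.1% were called higher. It was at 764, 458 and 599 CPM in iE9-labelled libraries, against 137, 316 and 295 CPM in dE9 libraries (log2 1.28 ± 0.28 SE, adjusted p = 0.0291). All 3 iE9-labelled libraries were above all 3 dE9 libraries, but the call was lost without iE9-labelled PMA library 1 (adjusted p = 0.108), without library 3 (0.072) and in a fit of only these groups (0.201). Without dE9 PMA library 1 and both iE9-labelled libraries 1 the difference was 0.80 (adjusted p = 0.02). CD38 (0.70 ± 0.28, adjusted p = 0.199) and CD40LG (1.17 ± 0.45, adjusted p = 0.179) were also higher in all 3 iE9-labelled libraries but did not pass. Without dE9 PMA library 1, CD38 (1.03, adjusted p = 0.0427) and CD44 (2.36, adjusted p = 0.0453) passed as well. IL2RA differed by 0.12 (interval -1.45 to 1.70).

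Against WT, 1 of 6 members was called in unstimulated iE9-labelled cells, where 1.38% of all tested genes were called and 0.675% were called higher. This was CD38, at 79.3, 57.4 and 58.2 CPM in iE9-labelled libraries, against 20.6 and 27.1 CPM in WT libraries (log2 1.45 ± 0.33 SE, adjusted p = 0.0465). The call sat at the threshold and was lost when any 1 of these 5 libraries was left out, at adjusted p values of 0.0685 to 0.474. CD69 (1.16 ± 0.33, adjusted p = 0.108) and CD40LG (1.79 ± 0.58, adjusted p = 0.153) were higher in all 3 iE9-labelled libraries than in both WT libraries without passing. After PMA, 0 of 6 members were called against WT, where 1.12% of all tested genes were, and CD38 differed by -0.09 (interval -0.75 to 0.58). CD69 (0.60 ± 0.32, adjusted p = 0.414) and CD40LG (0.74 ± 0.51, adjusted p = 0.529) were again higher in all 3 iE9-labelled libraries than in both WT libraries. In dE9 cells against WT, 0 of 6 members and 0% of tested genes were called by edgeR in either treatment, with 459 genes with PMA and 560 without at an unadjusted p under 0.05, and DESeq2 called 8 and 20 genes, none of them a member. Without dE9 PMA library 1 the count with PMA was 174 genes, again with no member. CD69 was at 249 ± 97.6 CPM in dE9 cells (SD, n = 3) and 401 ± 1.8 CPM in WT cells (SD, n = 2) after PMA, a log2 difference of -0.69 with an interval of -1.34 to -0.03.

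Other values moved with the lines. CD79A, a B cell marker, was at 206 to 402 CPM in iE9-labelled PMA libraries, 8.41 to 154 CPM in dE9 PMA libraries and 29.3 to 57.8 CPM in WT PMA libraries. Unstimulated libraries had 38.1 to 119 CPM (iE9-labelled), 6.55 to 23.7 CPM (dE9) and 10.1 to 18.3 CPM (WT). The B cell list summed to 206 to 403 CPM in iE9-labelled PMA, 9.38 to 155 CPM in dE9 PMA and 31 to 59.4 CPM in WT PMA libraries, and 4 of its 6 genes were under 1 CPM in every library. The HDAC7 level given above moved in the same direction. Their part in the CD69 and CD38 differences was not tested.

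**Figure D3:**
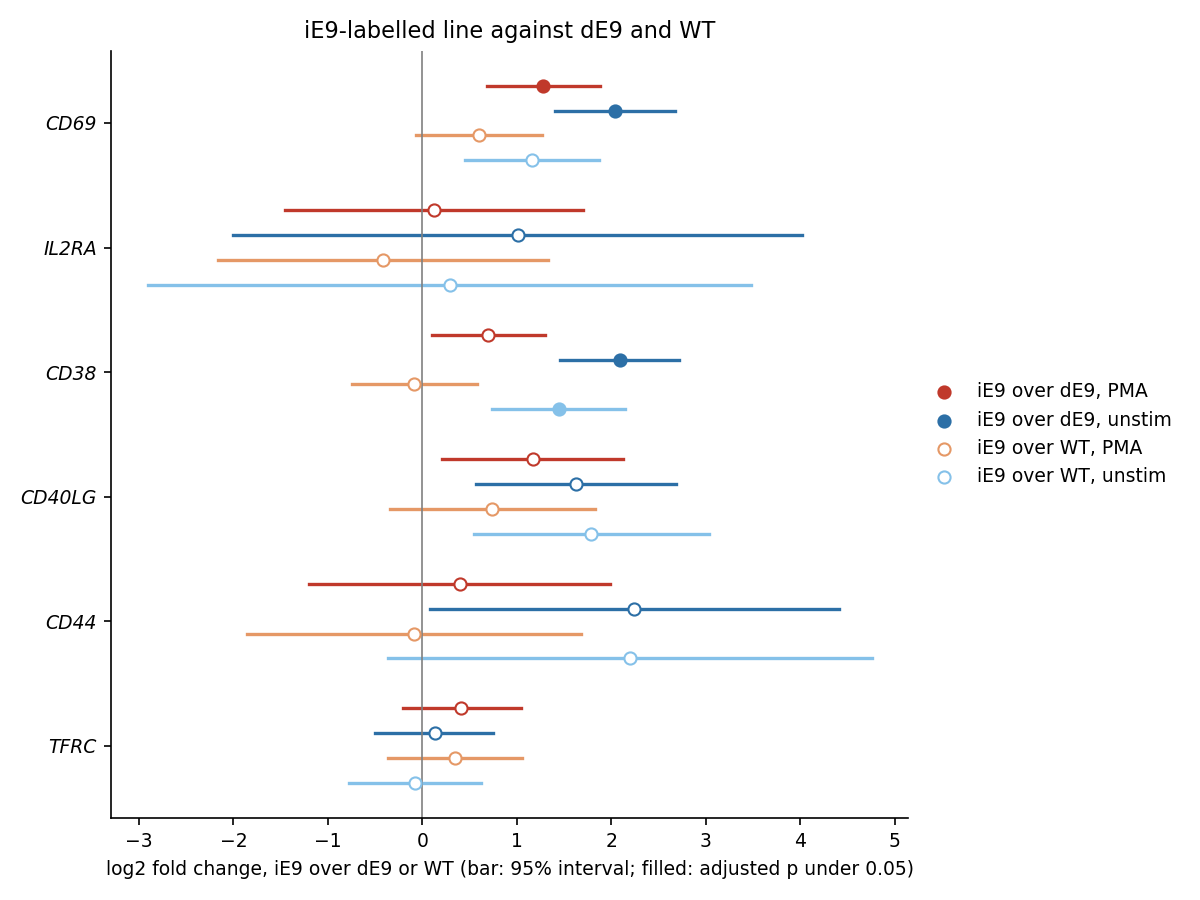
Fitted log2 difference of each antigen between the iE9-labelled line and dE9 or WT cells, with PMA and without; bars are 95% intervals, and filled points passed the adjusted threshold. The filled points are CD69 against dE9 in both treatments and CD38 against dE9 and WT without PMA.

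The CD38 transcript estimates also differed. An annotated target of nonsense-mediated decay lacks exon 3 (chr4:15824881-15825016, 136 bases), and it joins exon 2 directly to the fourth exon. The junctions that tell it from the full-length coding transcript are shown from GENCODE 29, with the last 30 bases of exon 2 in lower case and the first 30 bases of the next exon in capitals.
CD38 full length: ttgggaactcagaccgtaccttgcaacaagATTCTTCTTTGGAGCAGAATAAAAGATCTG
CD38 without exon 3: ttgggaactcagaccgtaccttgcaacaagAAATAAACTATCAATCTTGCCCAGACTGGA

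The transcript without exon 3 was estimated at 10.3, 9.3 and 10.5 TPM in iE9-labelled PMA libraries and at 6.54, 6.72 and 6.85 TPM in unstimulated iE9-labelled libraries. It was at 0, 2.2 and 0 TPM in dE9 PMA libraries, against 1.18, 1.73 and 0 TPM in unstimulated dE9 libraries. WT libraries had 1.32 and 2.67 TPM with PMA, against 0 and 0 TPM without. All 6 iE9-labelled libraries therefore exceeded all 10 others. Its share of the sum of these 2 transcripts was 34.5% ± 2.15 with PMA and 32% ± 5.45 without in the iE9-labelled line (SD, n = 3 each), but reached 39.2% in 1 unstimulated dE9 library with low CD38. Another CD38 transcript, with a retained intron, took 22.4% to 37.3% of CD38 TPM in unstimulated dE9 libraries, but 0% in dE9 PMA and all WT libraries. It ranged from 0% to 18.4% in the iE9-labelled line. These estimates were singled out after the values were seen and carry no test. The full-length transcript and that without exon 3 also differ at their 3′ ends, so their estimates do not show from which part of the transcript the reads came. Restricted to protein-coding transcripts, the gene-level difference of CD38 between unstimulated iE9-labelled and WT cells was 1.27 (adjusted p = 0.105).

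**Figure D4:**
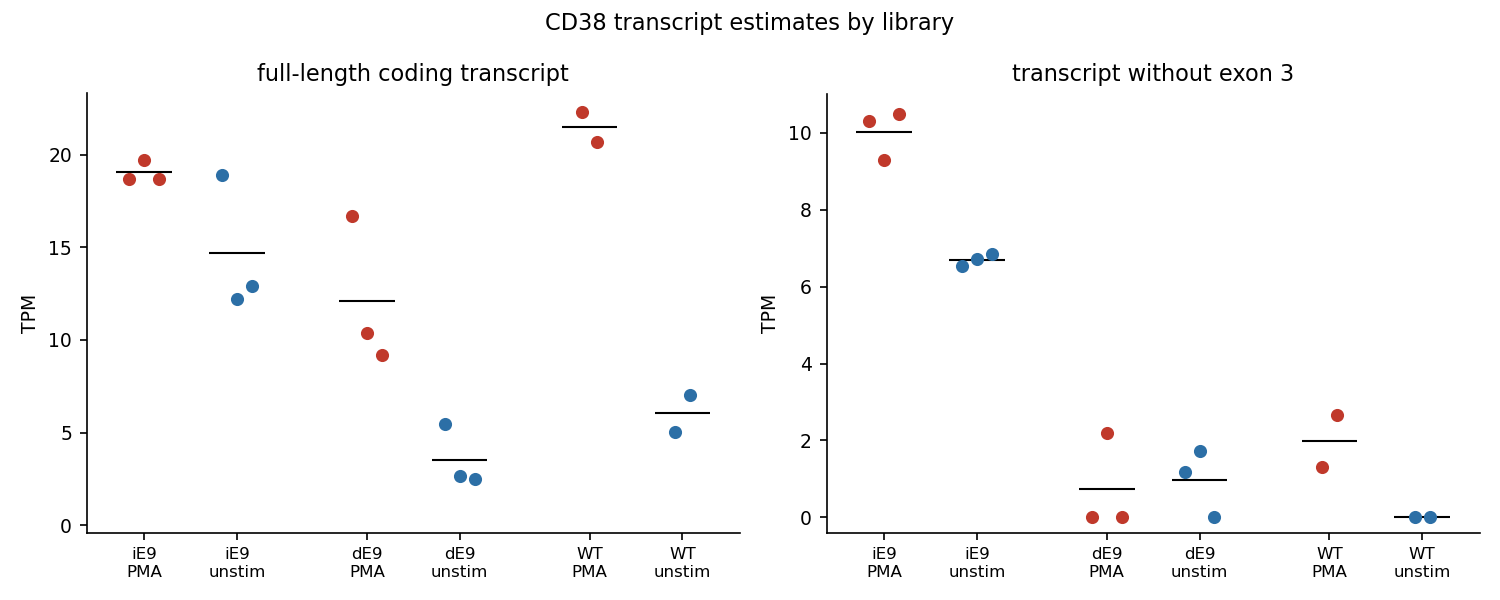
Estimated level of 2 CD38 transcripts in every library, in TPM, with PMA groups left of unstimulated groups; each point is 1 library and bars are group means. The transcript without exon 3, at 6.54 to 10.5 TPM in the iE9-labelled libraries, does not exceed 2.67 TPM elsewhere.

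Genes whose profile over the 16 libraries lay nearest to each member were found by the root mean square (rms) difference of mean-centred log2 CPM among 12364 other protein-coding genes. For CD69 these were IL16 (rms 0.48) and APOBR (0.51), for IL2RA TIMP1 (0.83) and GPR183 (0.9), and for CD40LG APOBR (0.65) and TIMP1 (0.69). IL16, a cytokine precursor, was at 411 CPM with PMA and 14.4 CPM without in the iE9-labelled line, and at 262 CPM with PMA and 5.41 CPM without in WT cells. CD38 was nearest to IL4R (0.41) and ITM2A (0.42), both picked for their likeness to CD38 in these same libraries. IL4R was not level in the iE9-labelled line, at 58.4 CPM with PMA and 27.3 CPM without. In WT cells IL4R was at 46.8 CPM with PMA and 10.1 CPM without. ITM2A was level in the iE9-labelled line, at 795 CPM with PMA and 793 CPM without. It was not level in WT cells, at 639 CPM with PMA and 218 CPM without. CD44 was nearest to ENPP1 (0.6) and ITGA1 (0.7). TFRC had the closest neighbours, ADAM9 (0.2) and SELENOI (0.21), and ADAM9, a membrane metalloproteinase, averaged 10.2 CPM with PMA and 39.7 CPM without in WT cells.

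The genes around each member were followed in 8 lists, chosen with earlier results of these data known, so their counts are descriptive only. These counts stand against 27.1% of all tested genes changed in the iE9-labelled line, 33.5% in dE9 and 22.3% in WT cells. Of 14 IL-2 receptor signalling genes, PMA raised 9 and lowered 0 in the iE9-labelled line, raised 7 and lowered 1 in dE9 cells, and raised 7 and lowered 0 in WT cells. Their median log2 change was 1.23, 1.33 and 1.25 in these lines, against -0.01, 0.06 and 0.03 over all tested genes. STAT5A, a transcription factor of the IL-2 pathway, rose to 123 ± 34.7 CPM with PMA in the iE9-labelled line, against 4.37 ± 1.94 CPM without (SD, n = 3 each). In WT cells STAT5A was at 506 ± 67.5 CPM with PMA and 5.65 ± 0.355 CPM without (SD, n = 2 each), a log2 change of 6.48 ± 0.44 SE (adjusted p = 1.96e-06). STAT3, another factor of this pathway, changed by a log2 value of 1.6 in the iE9-labelled line, 1.76 in dE9 and 1.90 in WT cells. JAK3, the kinase bound to the common gamma chain, rose in each line (2.79 in the iE9-labelled line, 3.12 in dE9 and 2.68 in WT cells) and after PMA was lower in iE9-labelled than in dE9 cells (-2.01 ± 0.36, adjusted p = 0.00963).

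Around CD40LG, PMA raised 4 of 11 tested TNF family ligands and CD40 in the iE9-labelled line, 4 in dE9 and 5 in WT cells and lowered 0 in each, with medians of 2.33, 2.18 and 1.87. TNFSF10, the death ligand TRAIL, rose in these lines (log2 changes of 5.70, 4.19 and 4.59), as did TNFSF8, the ligand of CD30 (3.82, 4.49 and 4.45). In dE9 PMA libraries TNFSF8 was at 21.6 ± 21.7 CPM (SD, n = 3), a spread above the mean, so its dE9 value is loose. TNFSF13B, the B cell survival factor BAFF, rose by 2.18 in dE9 and 2.80 in WT cells, and its value in the iE9-labelled line was 1.01 (adjusted p = 0.205). Of 16 NFAT and calcineurin genes, PMA raised 2 and lowered 1 in the iE9-labelled line, raised 5 and lowered 1 in dE9 cells, and raised 3 and lowered 1 in WT cells (medians 0.20, 0.31 and 0.42). NFAT5 and NFATC2 rose in all 3 lines, by 0.97 and 0.59 in WT cells, and the scaffold HOMER3 by 1.40 in WT cells.

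Around TFRC, of 14 tested genes of transferrin uptake and iron storage PMA raised 2 and lowered 2 in the iE9-labelled line, raised 1 and lowered 2 in dE9, and raised 0 and lowered 2 in WT cells (medians -0.06, -0.12 and -0.25). The mitochondrial iron importer SLC25A37 fell in these lines (log2 changes of -1.59, -1.64 and -1.63), as did the metal transporter SLC39A14 (-0.96, -0.97 and -1.12). The iron exporter SLC40A1 was at 10.6 CPM in unstimulated iE9-labelled cells and 40.8 CPM in unstimulated dE9 cells (-1.95 ± 0.39 SE, adjusted p = 0.0234). Around CD38, PMA raised 3 of 14 genes of NAD and adenosine metabolism and lowered 3 in the iE9-labelled line, raised 4 and lowered 3 in dE9, and raised 2 and lowered 3 in WT cells (medians -0.14, 0.17 and 0.14). Adenosine deaminase, ADA, fell (-1.89, -2.61 and -1.94), as did the NAD-consuming polymerase PARP1 (-0.74, -1.03 and -1.05). The ectoenzyme ENPP1 rose by 3.03, 3.35 and 4.10. In dE9 PMA libraries ENPP1 was at 21.6 ± 21.7 CPM (SD, n = 3), a spread above the mean, so its dE9 value is loose.

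Around CD44, PMA raised 4 of 14 hyaluronan and ERM partner genes and lowered 3 in the iE9-labelled line, raised 4 and lowered 2 in dE9, and raised 2 and lowered 2 in WT cells (medians -0.23, 0 and 0.15). The 2 linkers of membrane and actin named by the rule moved apart: MSN rose by 0.98, 1.04 and 1.13, and RDX fell (-0.69, -0.78 and -1.15). MMP14, a membrane metalloproteinase, rose by 1.13, 1.68 and 2.20. Around CD69, PMA raised 1 of 13 sphingosine-1-phosphate receptor and lectin genes and lowered 3 in the iE9-labelled line, raised 5 and lowered 2 in dE9, and raised 2 and lowered 1 in WT cells (medians 0.22, 0.50 and 0.58). CLEC2B, a lectin gene, rose by 2.45, 3.54 and 2.54, and the receptor gene S1PR3 fell (-2.27, -1.92 and -3.10). KLRB1 rose by 5.74 in dE9 and 5.20 in WT cells, where it averaged 0.0532 and 0.0889 CPM without PMA, and its value in the iE9-labelled line was 2.96 (adjusted p = 0.0531). In dE9 PMA libraries KLRB1 was at 3.28 ± 3.77 CPM (SD, n = 3), a spread above the mean, so its dE9 value is loose.

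Of 21 tested other activation antigens, PMA raised 8 and lowered 3 in the iE9-labelled line, raised 10 and lowered 2 in dE9, and raised 6 and lowered 1 in WT cells (medians 0.68, 0.73 and 0.87). CD82, a tetraspanin, rose by 2.50, 3.52 and 3.32, and after PMA was lower in iE9-labelled than in dE9 cells, at 112 CPM against 274 CPM (-1.29 ± 0.26 SE, adjusted p = 0.0219). CRTAM rose by 2.68, 5.69 and 5.04 and was higher in unstimulated iE9-labelled than in dE9 cells, at 0.764 ± 0.47 CPM against 0.0344 ± 0.0302 CPM (SD, n = 3 each; adjusted p = 0.0444 by edgeR). CD109 fell (-2.06, -2.73 and -2.10). IL12RB2, an IL-12 receptor chain, was at 4.18 CPM in iE9-labelled and 0.331 CPM in dE9 cells after PMA (3.64 ± 0.69, adjusted p = 0.0159). CD9, another tetraspanin, was lower in iE9-labelled than in dE9 cells both with PMA (adjusted p = 0.0199) and without (-4.67 ± 1.04, adjusted p = 0.0369). With PMA it averaged 0.0397 ± 0.0347 CPM in iE9-labelled and 4.83 ± 7.28 CPM in dE9 cells (SD, n = 3 each), where the spread exceeds the mean, so no fold is given. Without PMA it averaged 0.336 ± 0.112 CPM in iE9-labelled and 8.9 ± 4.06 CPM in dE9 cells (SD, n = 3 each).

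**Figure D5:**
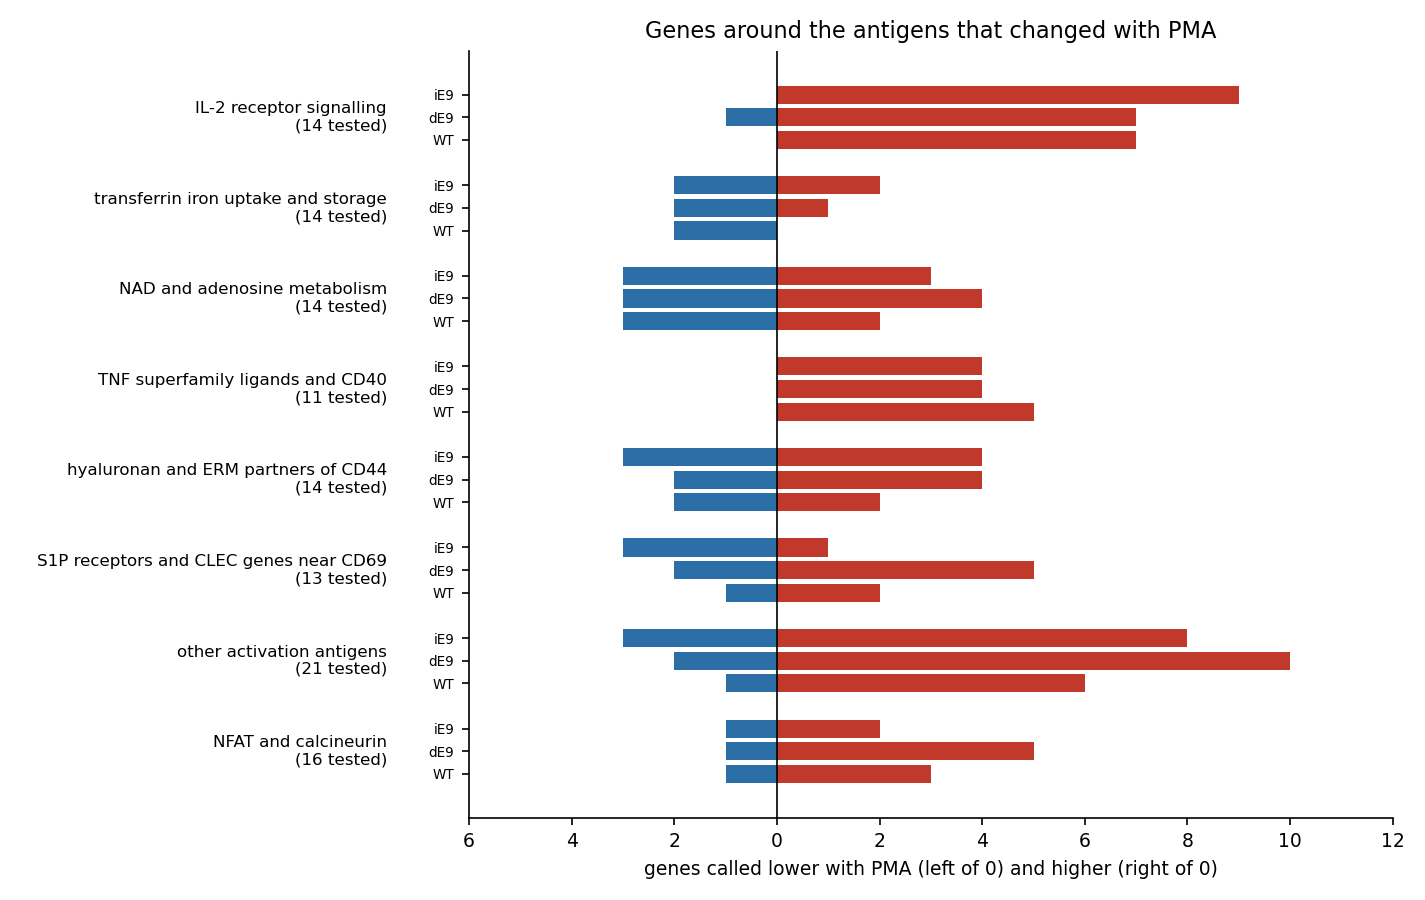
Number of genes of 8 lists around the antigens that PMA lowered (left of 0) or raised (right of 0) past the adjusted threshold in the iE9-labelled, dE9 and WT lines; the number tested stands under each name. The lists were chosen with earlier results of these data known. In the IL-2 receptor list 7 to 9 of 14 genes rose, where PMA raised 11.1% to 17.1% of all tested genes. The transferrin and iron list had 2 of 14 genes lowered in each line, where PMA lowered 11.3% to 16.5% of all tested genes. In that list 2, 1 and 0 genes were raised in the iE9-labelled, dE9 and WT lines.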

How the data were processed

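The submitters' processing notes name Salmon, DESeq2 and hg38, with no versions; strandedness is not given in the sources used here. The authors deposited, per the file headers, estimated counts, TPM and effective lengths (in bases) per transcript, and a gene table of TPM whose 16 columns each matched 1 library, used to check the gene sums. All 205870 transcripts matched GENCODE 29. Gene totals of the estimated counts were rounded to whole numbers. The test was edgeR's quasi-likelihood F test (edgeR 4.0.16, R 4.3.3; two-sided, 1 coefficient per group over all 16 libraries, TMM scaling, filterByExpr), which kept 18073 of 33304 genes with a count. A Benjamini-Hochberg adjusted p under 0.05 counts as called, and "alternatives" are other settings, tools or left-out libraries. The fit was also run on simulated counts with less spread between libraries than these data, so that run does not show how the fit performs here. Each SE is the size of the log2 value divided by the square root of F, not a separately estimated standard error. The intervals of log2 values were built from it, so they restate the F test. This SE is unstable for small log2 values. For the IL2RA response of dE9 minus WT it was 1.49, but 5.5 with the replicate block over all libraries, where the value was -0.08.

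Exact intervals of count ratios pool the libraries of each group, so they cover counting error only and leave out the spread between libraries. Reads copied by PCR are not separate molecules, so even the counting error may be larger. Replicates differed by a chi-square of at least 7.22 per degree of freedom, so no library was a copy of another. This does not show that they came from separate cultures. The value was 7.22 and 11.2 in WT, and highest, at 123, between unstimulated iE9-labelled libraries 1 and 2. Same-numbered libraries deviated together within the iE9-labelled line (r = 0.44, 0.23 and 0.19 for libraries 1, 2 and 3) and dE9 (0.30, 0.30 and 0.24), so there the numbers were taken to pair libraries. In WT r was 0.07. Different-numbered dE9 pairs had r of -0.19 to -0.04, and iE9-labelled pairs that crossed library 1 had -0.31 to -0.22. However, unstimulated iE9-labelled library 2 had r = 0.15 with PMA library 3, and unstimulated library 3 had 0.08 with PMA library 2. The pairing of iE9-labelled libraries 2 and 3 by number was thus weak. The antisense genes CD44-AS1 and AL137186.1 had 0 counts in every library.

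Named genes are the 6 members, up to 3 genes per list with the smallest adjusted p in WT and up to 2 between the edited lines, and the 2 nearest profiles (CPM + 0.1, mean CPM of at least 1), with HDAC7 as a check of the labels; CD79A was named after its values were seen. The members and lists were chosen with earlier results of these data known.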

Additional observations from a re-analysis of the deposited data

How the results depend on the processing

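Of 1157 alternative values for 72 fold changes of members, 1114 kept their side of the threshold, 23 fell short of it and 20 passed it. The sign differed in 51 of the 1114, all of them short of the threshold in both fits (smallest adjusted p = 0.204), so that no direction can be read for those differences between lines or responses; 0 called values changed sign. The count of members called in WT with PMA was 3 to 6 over fits leaving out 1 library. In the iE9-labelled line it was 5, and 3 with length-scaled counts and 3 to 5 leaving out 1 library. Between iE9-labelled and dE9 cells with PMA it was 1, and 3 with no filter on low counts, 2 with length-scaled counts, 0 in a fit of only these groups, 2 without dE9 PMA library 1 and both iE9-labelled libraries 1, and 0 to 3 leaving out 1 library. Between unstimulated iE9-labelled and WT cells it was 1, and 3 with no filter, 3 with DESeq2, 2 with limma voom, 0 with protein-coding transcripts only, 2 without those 3 libraries and 0 in each fit leaving out 1 library. For the response of the iE9-labelled line it was 0, and 1 with no filter against both dE9 and WT (CD38), 1 with the replicate block within each line against both (CD38), and 1 against dE9 without those 3 libraries (CD69, -1.10, adjusted p = 0.0382). Without those 3 libraries the PMA counts were 5 in the iE9-labelled line, 6 in dE9 and 6 in WT, as with all libraries. The replicate block over all libraries changed no call of a member, and the block within each line changed no other. The causes were not tested.

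Over all genes, calls with PMA in WT numbered 4038, and 1419 to 1904 leaving out 1 library, 8284 in a fit of only its groups, 8754 with limma voom, 6590 with the replicate block within each line and 6920 without those 3 libraries. Between iE9-labelled and dE9 cells with PMA they numbered 471, and 1801 with no filter, 1285 with DESeq2, 127 with limma voom, 283 with length-scaled counts, 47 in a fit of only these groups, 1520 without those 3 libraries and 113 to 1035 leaving out 1 library. Without PMA they numbered 311, and 1319 with no filter, 840 with DESeq2, 173 with length-scaled counts, 161 in a fit of only these groups and 110 to 276 leaving out 1 library. Between iE9-labelled and WT cells with PMA they numbered 203, and 1162 with no filter, 698 with DESeq2, 1021 with limma voom, 113 with length-scaled counts, 665 in a fit of only these groups, 135 with protein-coding transcripts only, 738 without those 3 libraries and 24 to 73 leaving out 1 library. Without PMA they numbered 249, and 1220, 824, 946 and 141 in the first 4 of these settings, 514 without those 3 libraries and 18 to 139 leaving out 1 library. For the response they numbered 0, and against dE9 480 with no filter, 114 with DESeq2, 61 with the block within each line, 461 without dE9 PMA library 1, 15 without dE9 PMA library 3 and 722 without those 3 libraries. Against WT the iE9-labelled response gave 292 with no filter, 59 with DESeq2, 16 with limma voom, 30 in a fit of only these groups, 35 with that block and 31 without those 3 libraries, and the dE9 response gave 49 with no filter, 22 without dE9 PMA library 1 and 134 without those 3 libraries. Between dE9 and WT cells with PMA they numbered 0, and 159 with no filter, 8 with DESeq2, 174 without dE9 PMA library 1 and 314 without those 3 libraries. Without PMA they numbered 0, and 132 with no filter, 20 with DESeq2, 41 with limma voom and 7 without those 3 libraries. Settings that gave 1 or 2 genes in place of 0 are not listed. At this depth IL2RA and CD44 in unstimulated cells, at 12 counts or fewer per library, limit any comparison between lines.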
